A study of Mus musculus with 21 samples.

Results

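The genes described here are 50 genes of mitosis and the mitotic spindle, chosen by name from textbook roles. They take in checkpoint kinases, centromere and kinetochore proteins, spindle motors, mitotic cyclins, condensins, cytokinesis and anaphase proteins, and a few markers of dividing cells. The choice was made with earlier results of these data known. All 50 were listed in each of the 3 deposited tables, which hold 12404 genes between them. They were sorted by role into 11 classes. RNA of all 50 fell in reprogramming cells that carried Tet1CD, where 24.9% of all genes fell. All 50 were higher in fibroblasts that carried a hairpin against p53, where 11.5% of all genes rose. The fibroblast result rests on 4 libraries and did not pass under every setting of the test.

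The study sequenced total RNA of mouse embryonic fibroblasts (MEFs) of the ICR strain, taken from embryos of day 13.5 and used at passage 2. All cells had been infected for 48 hours with retroviruses, and each of the 21 libraries carried 1 combination of constructs in 1 setting. The reprogramming cells (called SKOM cells) had also received retroviral Sox2, Klf4, Oct4 and Myc and were collected on day 5, in embryonic stem cell medium with vitamin C (Vc+) or without it (Vc-). In each medium the 3 libraries with Tet1CD were Tet1CD, Tet1CD+Dnmt1 and Tet1CD+shDnmt1, and the 4 without it were shp53+shDnmt1, shDnmt1, Dnmt1 and the Flag+shLuc control. The MEF table held Tet1CD, shp53+shDnmt1, shp53, shDnmt1, Dnmt1 and a Flag+shLuc control, together with a library labelled 5C_Flag+shLuc (day 4 in the table header), and the labels do not say what 5C is. The labels do not spell out Tet1CD, written Tet1-CD for MEFs. Tet1 is an enzyme that oxidises methylated cytosine, Dnmt1 copies DNA methylation after replication, sh is the usual prefix of a short hairpin RNA, and a Flag tag with a luciferase hairpin is a usual control.

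The deposited values are integers that already share nearly the same sorted distribution within each table, so depth is unknown and no counting error was computed. Nothing states a correction for gene length, and levels are not compared between genes. The 5C library departed from the common sorted values of its table at 97.1% of ranks, the MEF Tet1CD library at 35.8% and the remaining MEF libraries at 12% or less. In SKOM cells the Vc+ Tet1CD+shDnmt1 library departed at 15.0%, Vc+ shp53+shDnmt1 at 10.1% and the others at 8.92% or less. Each construct combination had 1 library per setting, and nothing in the labels says that libraries came from separate cultures, so a p-value here speaks only of the spread among the libraries at hand, which may be technical. The targeted transcripts followed their labels for the hairpins and, in SKOM cells, for Tet1CD. The MEF table has no value for Tet1, so the MEF library labelled Tet1CD was not checked in this way. Trp53 had a value of 157 in MEFs with shp53, against 1008 in control MEFs. Dnmt1 had 208 in MEFs with shDnmt1, against 957 in the control. The falls were smaller in SKOM cells. There Trp53 had 453 in Vc- and 621 in Vc+ with shp53+shDnmt1, against 810 and 1304 with shDnmt1. Dnmt1 had 527 in Vc- and 1154 in Vc+ with shDnmt1, against 984 and 2346 in the controls. In SKOM cells Tet1 ran from 2140 to 3129 in libraries with Tet1CD, against 11 to 88 in those without. The libraries labelled Dnmt1 showed no such change: Dnmt1 had 975 in MEFs, 2381 in Vc+ and 1001 in Vc-, against 957, 2346 and 984 in the controls. Of the fibroblast markers looked for, all 14 were listed in MEFs, Col1a1 and Vim among them.

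During mitosis the kinetochore links each chromosome to spindle microtubules, and the spindle checkpoint holds back the anaphase-promoting complex until all chromosomes are attached. Cyclin B with Cdk1 drives entry into mitosis, and the breakdown of cyclin B and securin opens the way to chromosome separation and cytokinesis. Most of these genes are transcribed mainly in the G2 and M phases, so in bulk RNA their level depends in part on how many cells are dividing. Active p53 is known to lower many of them through p21 and the DREAM complex, which binds a short promoter element called the CHR, often near CCAAT boxes bound by NF-Y.

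Because the members moved together across libraries, promoters are shown for 6 of them, picked to span the motif contents described next. RefSeq promoter windows of assembly GRCm38.p6, from 250 bases before to 50 bases after a start, were found for 41 of the 50 members. The windows were searched on both strands for the CHR (TTTGAA), a related form (TTTAAA), the CCAAT box (CCAAT) and E2F sites (TTTCCCGC, TTTGGCGC, TTTCGCGC or TTTGCGCG). TTTAAA reads alike on both strands and was counted once, and the E2F forms can overlap one another. Capitals mark the TTTGAA, the TTTAAA form and the CCAAT box, which reads TTCAAA where a CHR lies on the opposite strand, or ATTGG where a CCAAT box does. The windows are those of Top2a (chr11:99024140-99024439, minus strand), Plk1 (chr7:122159185-122159484, plus strand), Kifc1 (chr17:33890584-33890883, minus strand), Ccnb2 (chr9:70421505-70421804, minus strand), Cdc20 (chr4:118437294-118437593, minus strand) and Ncaph (chr2:127133905-127134204, minus strand), each printed 5′ to 3′ along its gene.
Top2a: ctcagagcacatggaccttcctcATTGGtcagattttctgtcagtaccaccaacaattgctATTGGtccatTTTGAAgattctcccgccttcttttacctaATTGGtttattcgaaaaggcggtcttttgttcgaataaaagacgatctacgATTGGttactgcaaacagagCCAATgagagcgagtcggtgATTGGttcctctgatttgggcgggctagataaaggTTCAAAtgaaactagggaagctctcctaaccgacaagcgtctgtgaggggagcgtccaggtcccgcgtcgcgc
Plk1: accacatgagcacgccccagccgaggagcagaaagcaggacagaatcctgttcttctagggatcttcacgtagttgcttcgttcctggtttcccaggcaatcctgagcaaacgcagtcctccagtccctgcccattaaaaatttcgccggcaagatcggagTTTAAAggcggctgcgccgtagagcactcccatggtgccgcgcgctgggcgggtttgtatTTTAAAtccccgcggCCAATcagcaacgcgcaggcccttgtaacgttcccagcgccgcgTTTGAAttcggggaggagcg
Kifc1: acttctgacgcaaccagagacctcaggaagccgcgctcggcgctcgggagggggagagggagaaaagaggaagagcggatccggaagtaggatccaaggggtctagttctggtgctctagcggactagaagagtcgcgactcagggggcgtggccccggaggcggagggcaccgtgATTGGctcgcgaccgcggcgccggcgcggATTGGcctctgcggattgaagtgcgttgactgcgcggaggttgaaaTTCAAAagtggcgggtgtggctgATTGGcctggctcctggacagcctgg
Ccnb2: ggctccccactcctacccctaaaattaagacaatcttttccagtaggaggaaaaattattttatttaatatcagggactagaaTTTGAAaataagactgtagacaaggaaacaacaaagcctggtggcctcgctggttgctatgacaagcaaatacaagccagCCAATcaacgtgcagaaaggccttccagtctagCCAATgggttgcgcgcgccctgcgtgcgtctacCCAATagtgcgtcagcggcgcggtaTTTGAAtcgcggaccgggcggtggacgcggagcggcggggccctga
Cdc20: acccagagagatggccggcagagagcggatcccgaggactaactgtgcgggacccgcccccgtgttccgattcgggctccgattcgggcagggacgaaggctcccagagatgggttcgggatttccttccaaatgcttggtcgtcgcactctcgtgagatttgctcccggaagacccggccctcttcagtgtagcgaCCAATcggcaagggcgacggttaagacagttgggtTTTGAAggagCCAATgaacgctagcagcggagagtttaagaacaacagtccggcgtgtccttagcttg
Ncaph: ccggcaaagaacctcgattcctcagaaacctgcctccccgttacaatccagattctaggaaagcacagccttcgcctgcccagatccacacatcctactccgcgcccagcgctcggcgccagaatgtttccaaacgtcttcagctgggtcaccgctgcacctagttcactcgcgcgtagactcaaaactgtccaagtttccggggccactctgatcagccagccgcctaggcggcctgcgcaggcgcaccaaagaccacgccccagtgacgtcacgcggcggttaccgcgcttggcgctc

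TTTGAA stood in 32 of the 41 member windows (78.0%), against 11.8% of the windows of the 9162 listed genes that had one. CCAAT stood in 31 (75.6%, against 39.0%), and 21 members held at least 2 copies (51.2%, against 15.1%). TTTAAA stood in 9 members (22.0%, against 9.28%) and an E2F site in 4 (9.76%, against 4.2%). Position set the members further apart: TTTGAA began within 50 bases of the start in 29 members (70.7%), against 2.96% of all listed genes, a distance chosen after the positions were seen. Top2a, which untangles sister chromatids, carried 6 CCAAT boxes, and Ccnb2, a mitotic cyclin, carried 3 of them and a TTTGAA that begins at base 5 of the transcript. Neither TTTGAA nor TTTAAA was found in the windows of Bub1, Mad2l1, Cenpk, Nuf2, Ncaph and Pttg1. The Tet1CD change described below had a median of -0.75 (log2) in the 35 members with TTTGAA or TTTAAA and -0.62 in these 6, which is given as a description. The start of the window lay within 50 bases of the start given in the deposited tables for 33 of the 41 members. The windows of Kif2c and Ncapd2 lie 3867 and 22302 bases from it. Those of Kif4, Pttg1, Mad2l1, Cenpa, Ccnb1 and Spc25 lie 328, 270, 169, 109, 84 and 78 bases from it. Aurkb, Incenp, Spc24, Kif20a, Ccna2, Cdc25c, Tpx2, Smc4 and Lmnb1 had no window in the table used.

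The first comparison asked how the 6 SKOM libraries with Tet1CD differed from the 8 without. All 50 members fell, by a median of 0.74 on the log2(value + 5) scale, with single members between -1.31 (Spc24) and -0.24 (Cenpk). Over all 10711 genes fitted, 24.9% fell and 20.3% rose, with a median change of -0.04. The test was limma with Benjamini-Hochberg adjustment over all genes, in a model with terms for medium, Dnmt1, shDnmt1 and shp53, and every adjusted p comes from such a limma fit. Changes on this scale understate those of genes with low values. In bulk RNA, fewer dividing cells and less of each transcript per cell cannot be told apart. The class medians lay close together, from -0.90 for the lamina gene and -0.85 for the mitotic kinases to -0.65 for the spindle checkpoint.

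**Figure D1:**
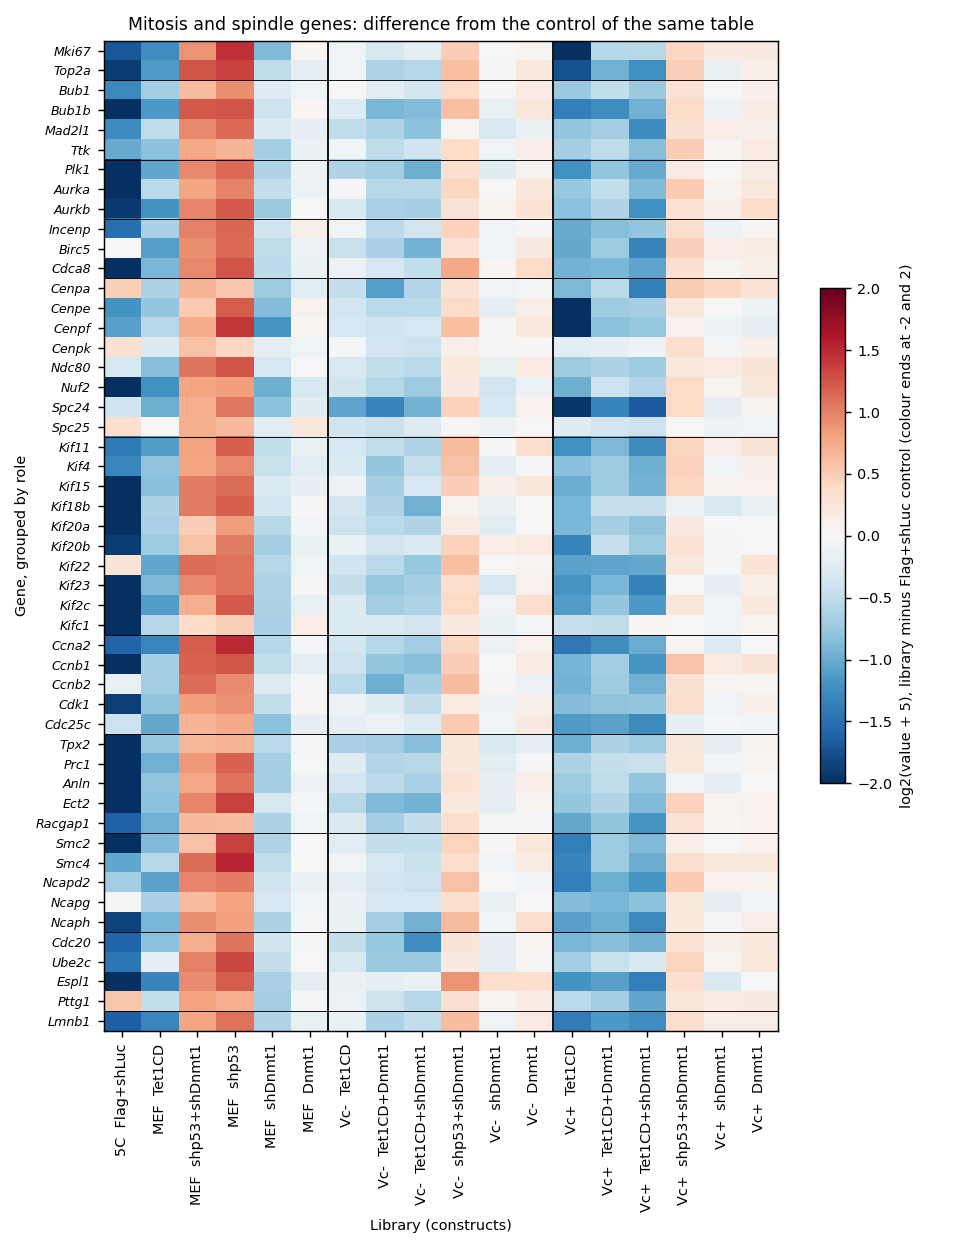
Difference of each library from the Flag+shLuc control of its own table, in log2(value + 5), for the 50 genes (down the page, grouped by role) in the 18 other libraries. Blue is lower and red higher than the control, with the colours ending at -2 and 2. All 6 SKOM columns with Tet1CD are mainly blue, both MEF columns with shp53 are red for all 50 genes, and the 5C column has the most cells at the blue end of the scale.

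The proliferation markers came first. Top2a (chr11:98992943-99024189, minus strand) read 1227, 852 and 878 with Tet1CD in Vc-, against 1999, 1334, 1512 and 1309 without, where libraries stand in the order in which the opening names them, here and throughout. In Vc+ it read 916, 1583 and 1310 with Tet1CD, against 4299, 2779, 3354 and 3087 without. Every library with Tet1CD was below every library without it in both media, and the fitted change was -0.90 ± 0.17 (adjusted p = 0.0018). Mki67 (chr7:135689788-135716379, minus strand), the gene of the Ki-67 antigen of cycling cells, had 2048, 1726 and 1865 with Tet1CD in Vc-, against 3018, 2146, 2239 and 2146 without. The Vc+ values were 988, 3084 and 3134 with Tet1CD, against 6120, 5174, 5174 and 4590 without. The groups did not overlap in either medium, but the 3 Tet1CD libraries in Vc+ were far apart, and the change of -0.72 ± 0.25 (adjusted p = 0.034) had one of the widest errors of all members. Its adjusted p exceeded 0.05 when any 1 of 6 libraries was left out (up to 0.087): in Vc- Tet1CD+Dnmt1 or the control, in Vc+ Tet1CD+Dnmt1, shDnmt1, Dnmt1 or the control.

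Of the spindle checkpoint, Bub1b, whose protein BubR1 restrains Cdc20, moved the most. It had 294, 185 and 191 with Tet1CD in Vc-, against 541, 318, 415 and 354 without, and 377, 414 and 504 with Tet1CD in Vc+, against 1278, 910, 1092 and 982 without. With no overlap in either medium, its change was -0.96 ± 0.14 (adjusted p = 0.00043). Bub1, a checkpoint kinase at the kinetochore, moved the least of the class. It had 206, 180 and 161 with Tet1CD in Vc-, against 273, 202, 234 and 208 without, where the highest Tet1CD library passed the lowest of the others. In Vc+ the groups were apart, with 255, 305 and 257 with Tet1CD against 527, 432, 466 and 432 without, and the change over both media was -0.47 ± 0.09 (adjusted p = 0.0022). Mad2l1, which joins BubR1 in the checkpoint complex, and Ttk, the kinase that starts checkpoint signalling, fell by 0.75 and 0.54.

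The mitotic kinases fell with small errors. Plk1 (chr7:122159437-122169875, plus strand), needed for spindle assembly and mitotic entry, had 297, 278 and 226 with Tet1CD in Vc-, against 569, 380, 476 and 451 without. The Vc+ values were 401, 536 and 458 with Tet1CD, against 1046, 925, 1032 and 931 without. Neither medium showed an overlap, and the change was -0.87 ± 0.09 (adjusted p = 8.6e-05). Aurka, the kinase of the spindle poles, had 320, 223 and 223 with Tet1CD in Vc-, against 439, 327, 386 and 329 without, so that the Tet1CD library itself lay just under the lowest of the others. In Vc+ it had 423, 510 and 388 with Tet1CD, against 1032, 757, 834 and 718 without, a wider gap, and the change was -0.63 ± 0.11 (adjusted p = 0.0010). Aurkb, the kinase of the chromosomal passenger complex, fell by 0.85.

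Aurkb works with Incenp, its scaffold, and with Birc5 (survivin) and Cdca8 (borealin), which target it to centromeres. Birc5 had 232, 202 and 164 with Tet1CD in Vc-, against 393, 304, 360 and 319 without, and 326, 402 and 264 with Tet1CD in Vc+, against 934, 732, 742 and 668 without. No libraries overlapped, and Birc5 changed by -0.92 ± 0.11 (adjusted p = 0.00016). Incenp had 551, 409 and 451 with Tet1CD in Vc-, against 808, 557, 599 and 587 without, where the Tet1CD library lay 6 below the lowest of the others. In Vc+ the gap was wide, with 602, 672 and 702 with Tet1CD against 1556, 1113, 1249 and 1213 without, and the change was -0.58 ± 0.11 (adjusted p = 0.0016). Cdca8 fell by 0.74.

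Centromere and kinetochore genes held both the deepest and the shallowest change of all members. Spc24 (chr9:21755442-21760286, minus strand), a subunit of the Ndc80 complex that grips microtubules, had 53, 43 and 57 with Tet1CD in Vc-, against 161, 89, 122 and 115 without. The Vc+ values were 72, 113 and 88 with Tet1CD, against 381, 256, 307 and 291 without. The highest Tet1CD value of each medium stayed below the lowest of the others, and the change was -1.31 ± 0.14 (adjusted p = 0.00012). Its partner Spc25 moved far less, with 75, 73 and 84 with Tet1CD in Vc-, against 103, 94, 102 and 101 without, and 151, 136 and 132 with Tet1CD in Vc+, against 180, 167, 169 and 179 without. Spc25 was still apart in both media, at -0.31 ± 0.07 (adjusted p = 0.0028). Cenpk, of the constitutive centromere network, had 112, 87 and 84 with Tet1CD in Vc-, against 125, 117, 117 and 115 without, and 160, 168 and 175 with Tet1CD in Vc+, against 238, 185, 201 and 188 without. These groups were separated by 3 in Vc- and by 10 in Vc+, and the change was -0.24 ± 0.08 (adjusted p = 0.024). That call ended when any 1 of 6 libraries was left out: Dnmt1, shDnmt1, Tet1CD+Dnmt1 or Tet1CD+shDnmt1 of Vc-, or Dnmt1 or Tet1CD of Vc+ (adjusted p up to 0.059).

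Cenpa (chr5:30666777-30674378, plus strand), the histone H3 variant that marks centromeres, had 83, 52 and 76 with Tet1CD in Vc-, against 142, 110, 115 and 117 without. For Vc+ they were 110, 143 and 78 with Tet1CD, against 300, 282, 254 and 210 without. Every Tet1CD library was below the others of its medium, and the change was -0.93 ± 0.16 (adjusted p = 0.0011). Cenpe, a kinetochore motor, and Cenpf, a kinetochore-associated protein, fell by 0.83 and 0.87 with wide errors of 0.23 and 0.26. Ndc80 and Nuf2, the other subunits of the microtubule-gripping complex, fell by 0.64 and 0.58.

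All 10 spindle motors of the kinesin family fell. Kif11, the motor that pushes spindle poles apart, had 230, 208 and 192 with Tet1CD in Vc-, against 461, 289, 370 and 296 without, and 314, 390 and 303 with Tet1CD in Vc+, against 998, 802, 872 and 730 without. The groups were apart in both media and the change was -0.92 ± 0.12 (adjusted p = 0.00025). Kifc1 (chr17:33875666-33890661, minus strand), a minus-end motor that focuses spindle poles, had 228, 226 and 215 with Tet1CD in Vc-, against 316, 252, 272 and 278 without. In Vc+ it was the only member whose groups overlapped, with 375, 366 and 535 with Tet1CD against 519, 493, 539 and 520 without, the Tet1CD+shDnmt1 library being as high as the others. Its change was -0.28 ± 0.09 (adjusted p = 0.025), and that call ended when any 1 of 7 libraries was left out (adjusted p up to 0.068): Tet1CD+shDnmt1, Dnmt1 or the control of Vc-, or Tet1CD, Tet1CD+Dnmt1, Dnmt1 or the control of Vc+. The other 8 motors changed by between -0.53 (Kif18b, which shortens microtubules) and -0.86 (Kif22, which pushes chromosome arms from the poles), with Kif23 of the central spindle at -0.84.

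Among the mitotic cyclins, Ccnb1 (chr13:100778650-100786570, minus strand), the cyclin B that activates Cdk1, had 229, 178 and 167 with Tet1CD in Vc-, against 436, 309, 346 and 307 without. For Vc+ they were 319, 382 and 266 with Tet1CD, against 916, 684, 729 and 612 without. No value with Tet1CD reached those without, and the change was -0.90 ± 0.10 (adjusted p = 0.00013). Cdk1 (chr10:69336635-69352938, minus strand) had 377, 341 and 288 with Tet1CD in Vc-, against 454, 377, 433 and 403 without, where the Tet1CD library tied with shDnmt1. In Vc+ Cdk1 was plainly apart, with 440, 456 and 470 with Tet1CD against 1022, 768, 861 and 804 without, and its change over both media was -0.55 ± 0.11 (adjusted p = 0.0024). Ccna2, which acts in S phase and G2, fell by 0.83, Ccnb2 by 0.80 and Cdc25c, a phosphatase that activates Cdk1, by 0.67.

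Ect2, the exchange factor that activates RhoA for the cleavage furrow, had the smallest adjusted p of all members. It had 231, 184 and 175 with Tet1CD in Vc-, against 396, 301, 355 and 343 without, and 380, 432 and 354 with Tet1CD in Vc+, against 900, 683, 693 and 656 without. With no overlap, the change was -0.77 ± 0.07 (adjusted p = 5.8e-05). Prc1, which bundles microtubules of the central spindle, had 464, 365 and 373 with Tet1CD in Vc-, against 645, 477, 535 and 550 without, and 654, 729 and 742 with Tet1CD in Vc+, against 1169, 976, 1048 and 1014 without. The values did not overlap although the change was smaller, at -0.45 ± 0.07 (adjusted p = 0.00072). Tpx2, which activates Aurora A on the spindle, Anln (anillin) and Racgap1, the Ect2 partner at the central spindle, fell by 0.66, 0.56 and 0.75.

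Condensin compacts mitotic chromosomes. Ncaph, a subunit of condensin I, had 218, 146 and 121 with Tet1CD in Vc-, against 373, 227, 306 and 240 without, and 227, 247 and 197 with Tet1CD in Vc+, against 558, 483, 538 and 489 without. They did not overlap, and the change was -0.92 ± 0.12 (adjusted p = 0.00032). Ncapg, of the same complex, had 251, 218 and 215 with Tet1CD in Vc-, against 344, 247, 278 and 275 without, a slight overlap, and 352, 340 and 364 with Tet1CD in Vc+, against 748, 578, 618 and 645 without. Its change was -0.51 ± 0.10 (adjusted p = 0.0022). Smc2, Smc4 and Ncapd2, the other subunits measured, fell by 0.74, 0.74 and 0.77.

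Of the genes of anaphase and mitotic exit, Cdc20, the activator of the anaphase-promoting complex, had 284, 231 and 165 with Tet1CD in Vc-, against 473, 347, 408 and 396 without. In Vc+ it had 374, 392 and 366 with Tet1CD, against 872, 765, 813 and 713 without. The groups were apart and the change was -0.89 ± 0.10 (adjusted p = 0.00012). Ube2c, the ubiquitin-conjugating enzyme of that complex, had 394, 294 and 294 with Tet1CD in Vc-, against 559, 431, 505 and 495 without, and 520, 616 and 668 with Tet1CD in Vc+, against 1140, 869, 967 and 838 without. It was also apart, at -0.56 ± 0.09 (adjusted p = 0.00082). Espl1 (separase, which cuts cohesin) and Pttg1 (securin, its inhibitor) fell by 0.75 and 0.66. Lmnb1, a nuclear lamina protein, had 711, 502 and 555 with Tet1CD in Vc-, against 1204, 748, 874 and 783 without, and 763, 908 and 855 with Tet1CD in Vc+, against 2591, 2192, 2192 and 2020 without. Again no libraries overlapped, with a change of -0.90 ± 0.15 (adjusted p = 0.0010).

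**Figure D2:**
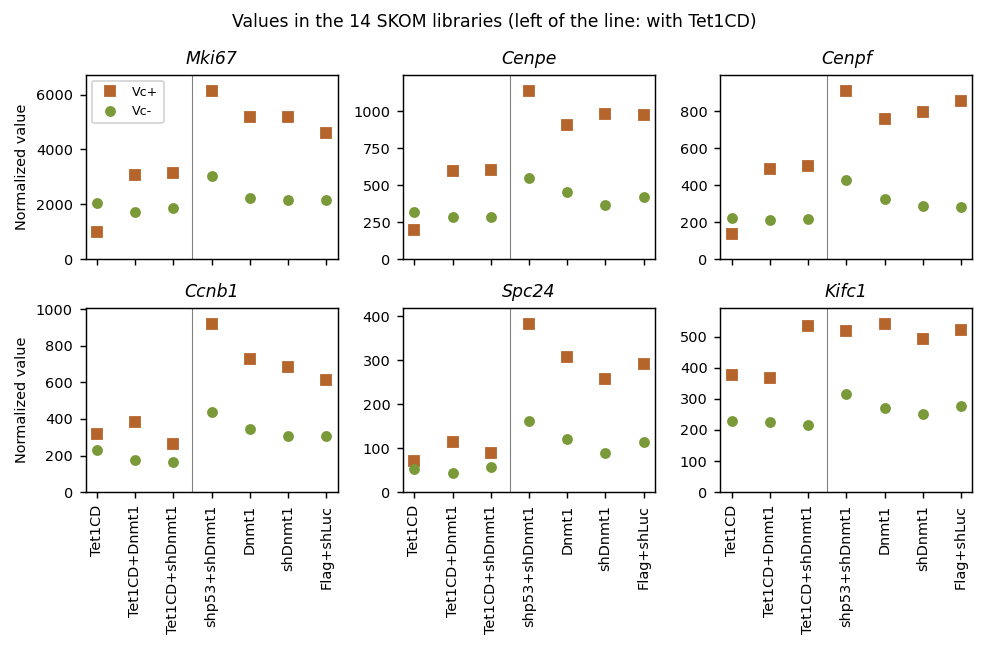
Deposited normalized values (y axis, from 0) of 6 genes in the 14 SKOM libraries, with Vc+ as squares and Vc- as circles; libraries left of the vertical line carry Tet1CD. Within each medium Ccnb1 and Spc24 are lower in every library with Tet1CD, Kifc1 overlaps in Vc+ at 535, and Mki67, Cenpe and Cenpf stand low in the Vc+ Tet1CD library alone, at 988, 194 and 135.

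The fall was seen within each medium by itself. In Vc+, 46 of the 50 members fell in a fit to that table alone, where 23.6% of all genes did, with a median of -1.01. In Vc-, 36 fell, where 7.38% of all genes did, with a median of -0.46. All 3 libraries with Tet1CD lay below all 4 without it for 49 members in Vc+ (31.3% of all genes) and for 46 in Vc- (15.7%), the exceptions being Kifc1 in Vc+ and Bub1, Ttk, Cdk1 and Ncapg in Vc-. The count of 36 rested on few degrees of freedom: it was 0 when the Dnmt1 or the Tet1CD+Dnmt1 library of Vc- was left out, 1 without shDnmt1 or Tet1CD+shDnmt1, 46 without the control or the Tet1CD library, and 6 without the intensity trend of limma. The Vc+ members that missed the threshold were Kif18b, Kifc1, Spc25 and Cenpk, at -0.46, -0.30, -0.29 and -0.19.

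The difference between the media was tested as an interaction over all 14 libraries. Values of Vc+ and Vc- were normalized separately, and the part of this in the difference was not tested. The Tet1CD change was more negative in Vc+ than in Vc- for 47 of 50 members, with a median difference of -0.46, and 16 members passed the threshold, where 8.28% of all genes did in this direction. Ncapd2, a condensin I subunit, had 554, 730 and 637 with Tet1CD in Vc+, against 2078, 1535, 1522 and 1443 without, and 538, 469 and 450 with Tet1CD in Vc-, against 913, 605, 587 and 607 without. Libraries did not overlap in either medium, with the wider gap in Vc+, and the difference was -0.92 ± 0.12 (adjusted p = 0.0023). The transcript listed for Ncapd2 is short, with 894 bases (chr6:125168007-125169284, minus strand). Lmnb1 differed by -0.89 ± 0.16 (adjusted p = 0.0073) and Cdc25c by -0.91 ± 0.21 (adjusted p = 0.020). Cdc25c has low values, with 39, 41 and 35 with Tet1CD in Vc+, against 82, 89, 88 and 92 without. Cenpk, Spc25 and Kif18b went the other way without passing the threshold, at 0.11, 0.05 and 0.13. The count was 4 without the Tet1CD or control library of Vc- and 5 without its shDnmt1 or Tet1CD+shDnmt1 library. It was 6 without the Dnmt1 or Tet1CD+Dnmt1 library of Vc+, 9 without its control and 10 without its Tet1CD library. Still, 4 genes (Ncapd2, Lmnb1, Smc4 and Espl1) passed in every fit that left out 1 library.

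**Figure D3:**
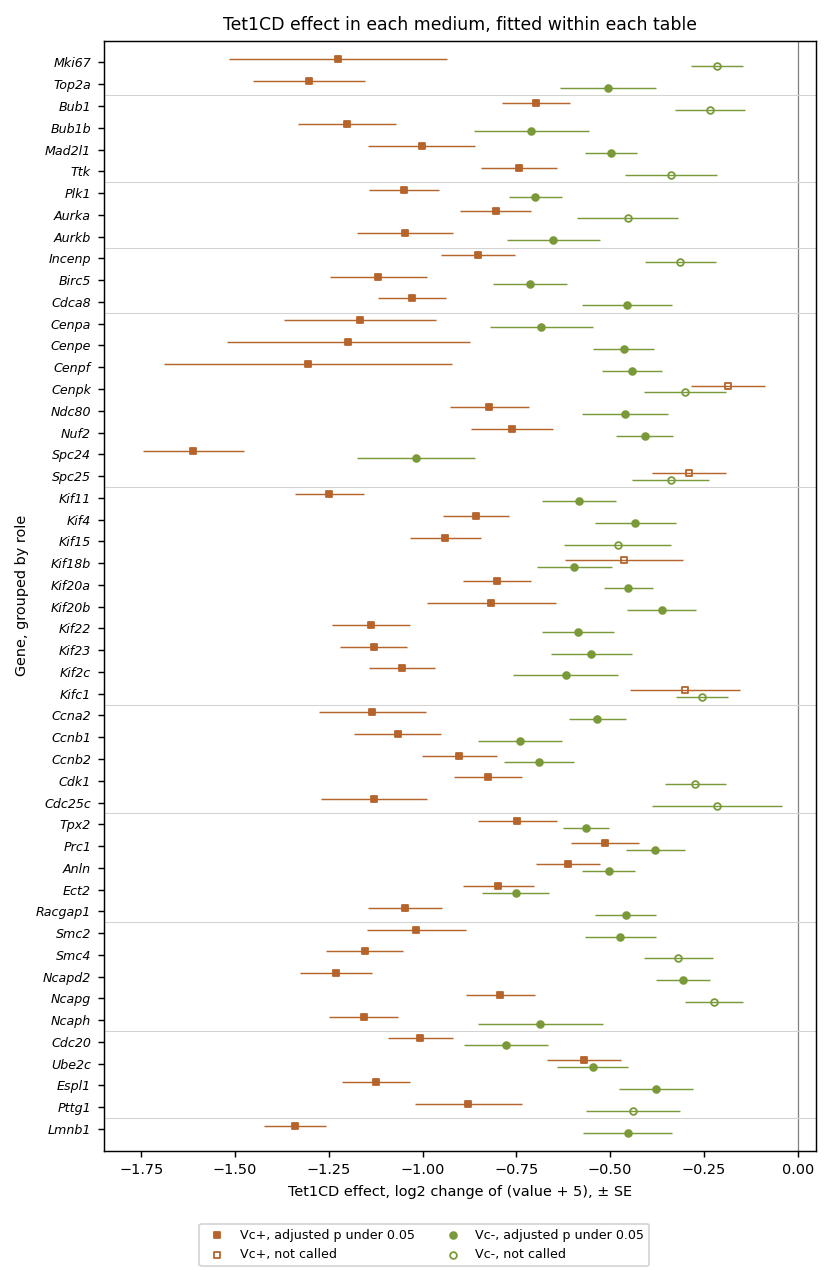
Tet1CD change of each gene (x axis, log2 of value + 5, ± SE) fitted within the Vc+ table (squares) and the Vc- table (circles); filled symbols have an adjusted p under 0.05. All 100 estimates are negative, with medians of -1.01 in Vc+ and -0.46 in Vc-, and the square lies left of the circle for 47 genes.

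The 3 Tet1CD libraries of a medium were not alike. Against the library with the same Dnmt1 construct and no Tet1CD, the member medians were -0.98 for Tet1CD, -0.86 for Tet1CD+Dnmt1 and -0.95 for Tet1CD+shDnmt1 in Vc+. They were -0.28, -0.65 and -0.48 in Vc-. At least 2-fold lower were 23, 14 and 24 members in Vc+ (5.35%, 4.73% and 5.93% of all genes) and 1, 5 and 1 in Vc- (0.634%, 0.783% and 0.541%). In the Vc+ Tet1CD library, Mki67, Cenpe and Cenpf stood far below the 2 other Tet1CD libraries of that medium, by 1.65, 1.60 and 1.83 on the log2 scale. Their transcripts, of 10061, 7910 and 11130 bases, are the longest of the members, and in that library the 2 members with transcripts of 8000 bases or more differed from the other libraries by a median of -1.74 and the 6 of 5000 bases up to 8000 by -0.62. Of these 6, Mad2l1 and Espl1 were not lower, at 0.20 and 0.03. Over all genes of these lengths the medians were -0.09 and -0.03, and the part of transcript length in the low values was not tested. With that library and the members of 5000 bases or more left out, an alternative chosen after these values were seen, 40 of the remaining 42 members fell.

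Other genes of the same pathways, listed by name with earlier results of these data known, moved mostly the same way. Of 38 further kinetochore and centromere genes, 32 were measured, 24 fell and 1 rose, with a median of -0.50, and Cenpm, Pmf1 and Cenpu had the largest changes at -1.03, -0.98 and -0.87. Of 29 further spindle and cytokinesis genes 28 were measured, 25 fell and 2 rose (median -0.49), with Nusap1, a microtubule-binding protein, at -0.89. Of 17 measured checkpoint and mitotic kinase genes 13 fell and 1 rose (median -0.38), and 11 of 14 measured condensin and cohesin genes fell (median -0.49). Genes of the anaphase-promoting complex and its regulators fell in 7 of 17 cases (median -0.19). All 36 genes of replication licensing and S phase fell, with a median of -0.67. Of 26 cell cycle transcription factors and regulators 16 fell and 1 rose (median -0.32), with E2f2 at -0.74. Myc, one of the delivered factors, is left out of this comparison of sizes. The reason is that its value was the highest of the table, 19681, in all 4 Vc- libraries without Tet1CD. With Tet1CD in Vc- Myc had 10782, 7021 and 10782. In Vc+ it had 6109, 7069 and 7995 with Tet1CD, against 13535, 18104, 13537 and 18104 without. The part of Myc in the change of the mitotic genes was not tested.

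Markers of other cells moved with Tet1CD too. Of 16 macrophage and leukocyte markers, Ptprc, Laptm5, Cd68, Itgam and, in Vc+, Lyz2 were listed, and the 4 tested in both media rose. Their summed value ran from 2449 to 3250 with Tet1CD in Vc+, against 338 to 493 without, and from 633 to 735 with Tet1CD in Vc-, against 302 to 400 without. Ptprc was at 0 in the Vc+ control and in the Vc- shp53+shDnmt1 library. Fibroblast markers (14 of 14 listed in Vc+) summed to 55759 to 61340 with Tet1CD in Vc+, against 36572 to 58295 without, and to 46103 to 47819 with Tet1CD in Vc-, against 40073 to 44831 without. Over both media 7 of the 13 tested rose while none fell. Epithelial markers (8 of 14 listed in Vc+) summed to 5569 to 6381 with Tet1CD in Vc+, against 7250 to 9489 without. In Vc-, with 7 listed, the sums overlapped, at 4050 to 4493 with Tet1CD, against 4332 to 6380 without, and over both media 4 of the 7 tested fell and 1 rose. Of 15 markers of pluripotent cells 3 were listed in Vc+, where they summed to 156 to 175 with Tet1CD, against 89 to 200 without. In the fit to that medium 2 of them rose and 1 fell. Of 8 endothelial markers 2 were tested, and over both media 1 rose and 1 fell. The part of all these cells in the change of the mitotic genes was not tested.

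In fibroblasts the hairpin against p53 had the opposite direction. All 50 members rose in the 4 MEF libraries that form a 2 by 2 layout of shp53 and shDnmt1, where 11.5% of all genes rose, with a median of 1.27 on the log2 scale. Mki67 had 2966 and 4403 in MEFs with shp53+shDnmt1 and shp53, against 857 and 1590 in those with shDnmt1 and the control. Ccna2 had 1787 and 2156 with shp53+shDnmt1 and shp53, against 515 and 767 with shDnmt1 and the control. Both libraries with shp53 were far above both without for each gene, and the fitted changes were 1.63 ± 0.11 (adjusted p = 0.0030) and 1.64 ± 0.11 (adjusted p = 0.0030). Cenpf changed the most, at 1.67 ± 0.15 (adjusted p = 0.0038), with values of 375 and 597 with shp53, against 95 and 222 without. Cenpk changed the least, at 0.59 ± 0.14 (adjusted p = 0.034), with 226 and 200 with shp53, against 130 and 149 without. This fit has 1 residual degree of freedom, and without limma's intensity trend no member passed the threshold.

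Every role class rose in MEFs with shp53, with class medians from 1.13 for the spindle checkpoint to 1.60 for Mki67 and Top2a. Plk1 had 753 and 854 with shp53+shDnmt1 and shp53, against 251 and 385 with shDnmt1 and the control. Ccnb1 had 786 and 820 with shp53, against 243 and 344 without. Kif11 had 505 and 668 with shp53, against 203 and 288 without. For all 3 genes both shp53 libraries were well above both others. In single pairs, 46 members were at least 2-fold higher with shp53+shDnmt1 than with shDnmt1 (3.62% of all genes) and 32 with shp53 than in the control (3.25%). The medians of these pairs were 1.41 and 1.09. Of the other lists, 24 of 32 kinetochore and centromere genes, 24 of 28 spindle genes, 30 of 36 replication genes and 8 of 17 genes of the anaphase-promoting complex rose. Foxm1 and Mybl2 (B-Myb), transcription factors that activate mitotic genes, changed by 1.44 and 1.69. Fibroblast markers summed to 84001 and 67693 in MEFs with shp53+shDnmt1 and shp53, against 114655 and 105060 with shDnmt1 and in the control, and 4 of the 14 fell.

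In SKOM cells shp53 was present only together with shDnmt1, and its change was set against shDnmt1. All 50 members had positive values with a median of 0.38, but none passed the threshold, where 0.00934% of all genes fell and 0.0% rose. At an unadjusted limma p under 0.05 there were 25 members, all higher, where 4.13% of all genes were higher at that threshold, and none passed without limma's intensity trend. Kif4, a chromosome-bound motor, had the largest change at 0.63 ± 0.16 (adjusted p = 0.29). It had 508 with shp53+shDnmt1 in Vc+, against 349 with shDnmt1, and 312 with shp53+shDnmt1 in Vc-, against 181 with shDnmt1. In both pairs the library with shp53 was the higher one. Spc25 and Kifc1 had the smallest changes, at 0.08 ± 0.10 (adjusted p = 0.79) and 0.08 ± 0.14 (adjusted p = 0.84). In the Vc+ pair 49 members were higher, with a median of 0.27, and Cdc25c was lower at -0.11, while in the Vc- pair all 50 were higher with a median of 0.45. No member reached 2-fold in either pair, where 0.682% and 0.298% of all genes were at least 2-fold higher. Whether the change differs between SKOM cells and MEFs was not tested, and their values were normalized separately. The fall of Trp53 itself was smaller in SKOM cells, as given in the opening, and its part was not tested.

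**Figure D4:**
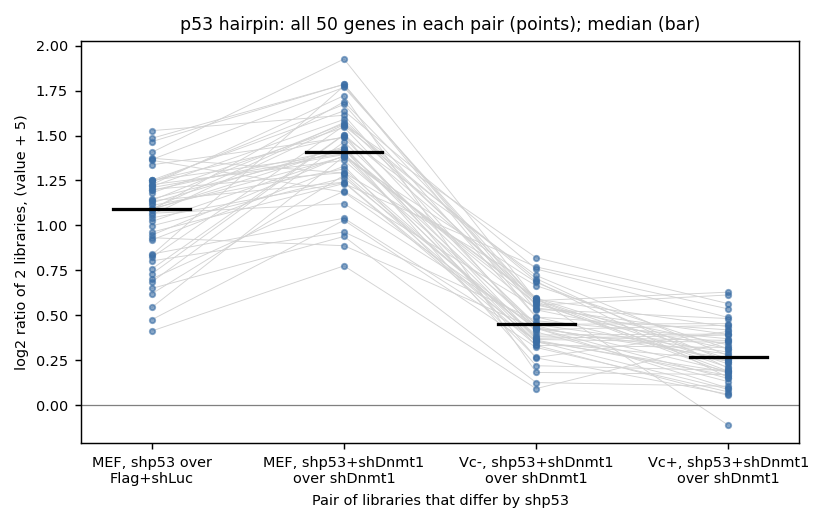
Log2 ratio of 2 libraries that differ by shp53 (y axis, value + 5) for the 50 genes (points joined by lines) in 4 pairs: MEF shp53 over control, and shp53+shDnmt1 over shDnmt1 in MEFs, Vc- and Vc+. Bars are medians, at 1.09, 1.41, 0.45 and 0.27, and Cdc25c at -0.11 in Vc+ is the one point below 0.

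The hairpin against Dnmt1 gave no member past the threshold. In MEFs all 50 had negative values with a median of -0.36, and 0 were called by limma, where 0.00898% of all genes fell. At an unadjusted limma p under 0.05 there were 27 members, all lower, where 6.45% of all genes were lower at that threshold, and none passed without the intensity trend. Cenpf had 375 with shp53+shDnmt1, against 597 with shp53, and 95 with shDnmt1, against 222 in the control. Both pairs were lower with the hairpin, at -0.92 ± 0.15 (adjusted p = 0.25), followed by Cenpe at -0.78 ± 0.11 (adjusted p = 0.19) and Mki67 at -0.73 ± 0.11 (adjusted p = 0.21). Without shp53 all 50 members were lower with shDnmt1 than in the control (median -0.54, with Cenpf more than 2-fold lower, where 0.726% of all genes were), and with shp53 41 were (median -0.18).

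In SKOM cells neither shDnmt1 nor the Dnmt1 construct gave a member past the threshold. For shDnmt1 41 members were negative, with a median of -0.08 (0.0187% of all genes fell), and 1 member, Anln, had an unadjusted limma p under 0.05 (lower), near the 1.91% of all genes that were lower at that threshold. For Dnmt1 15 were negative, with a median of 0.05 (0.0% of all genes called), and no member had an unadjusted p under 0.05. No member passed without the intensity trend for either construct. The 95% confidence intervals of single members ran from -0.61 to 1.12 for shDnmt1 and from -0.43 to 1.13 for Dnmt1, so changes of that size cannot be told from none. The widest belong to Mki67, Cenpe and Cenpf, the genes that were low in the Vc+ Tet1CD library.

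Tet1CD in MEFs had 1 library, and no test was made. That library departed from the common sorted values more than the other MEF libraries except 5C, as given in the opening, and its Tet1 could not be checked. Of the 50 members 49 were lower than in the control and 15 were at least 2-fold lower (2.13% of all genes), with a median log2 ratio of -0.82. Espl1 had 57 with Tet1CD, against 149 in the control, Lmnb1 265 against 665 in the control, and Ccna2 308 against 767 in the control, ratios of -1.31, -1.31 and -1.30. Spc25 was level, with 149 with Tet1CD against 148 in the control. Set against the library labelled Dnmt1 in place of the control, all 50 were lower, with a median of -0.78 and 7 at least 2-fold lower (1.87% of all genes). The macrophage and leukocyte list (8 of 16 genes listed) summed to 1528 with Tet1CD, against 249 in the control, and its part in the ratios was not tested. With a pseudocount of 32 in place of 5, 8 members were at least 2-fold lower.

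The 5C library stood apart from the others of its table, as given in the opening, and had no replicate. Of the members 45 were lower than in the MEF control and 38 were at least 2-fold lower, where 27.9% of all genes were, with a median of -1.63. Anln had 25 in 5C, against 1124 in the control, Plk1 14 against 385 in the control, and Bub1b 22 against 210 in the control. These are ratios of -5.23, -4.36 and -2.99. Pttg1, Cenpa and Spc25 were higher, with 272, 159 and 188 in 5C, against 183, 113 and 148 in the control, as were Cenpk and Kif22. Ratios in this library followed transcript length over all genes, with medians of 0.73 for transcripts under 1500 bases and -0.83 for those of 8000 bases or more. The 7 members under 1500 bases had a median of -0.0033, the 18 of 1500 bases up to 3000 had -1.75 and the 17 of 3000 bases up to 5000 had -1.99. Longer members were not lower still, with -1.90 for the 6 of 5000 bases up to 8000 and -1.39 for the 2 of 8000 bases or more. The macrophage and leukocyte list summed to 5659 in 5C, against 249 in the control, and the part of length and of other cells was not tested.

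**Figure D5:**
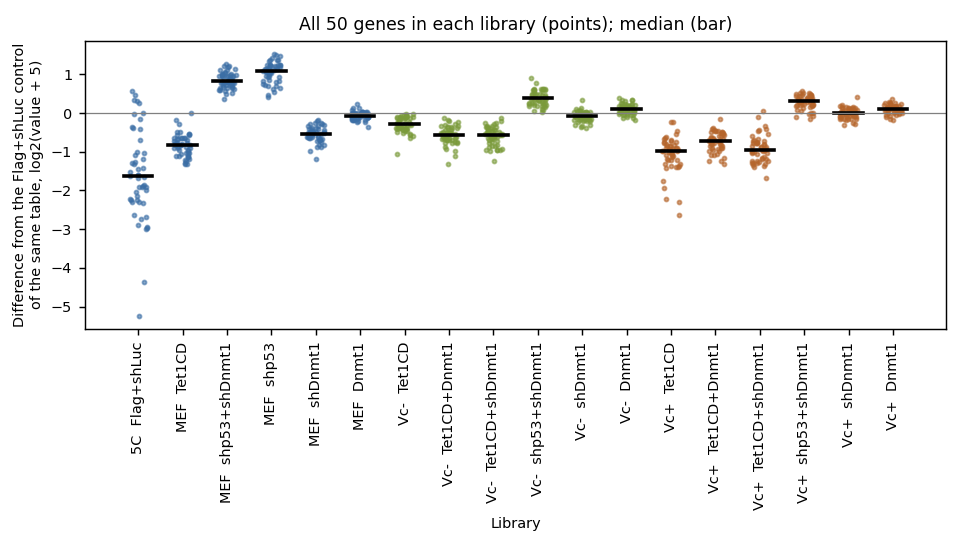
Difference of each of the 50 genes (points) from the Flag+shLuc control of the same table (y axis, log2 of value + 5) in each of the 18 other libraries, with bars at the medians. The MEF libraries with shp53 lie above 0, all libraries with Tet1CD lie mainly below it, and 5C reaches from 0.56 down to -5.23.

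Vitamin C and the reprogramming factors could be looked at only across tables that were normalized separately, so ratios of libraries with the same construct were centred on the median of all shared genes and not tested. Between Vc+ and Vc- the members had a median centred log2 ratio of 0.43 over 7 pairs. None was at least 2-fold higher in the median with the same direction in every pair, where 0.392% of all genes were, and none was lower in this sense (0.215%). Spc25, Kifc1, Kif22, Ect2, Pttg1 and Ccnb2 were higher in Vc+ in all 7 pairs, as were 6.75% of all genes, and Bub1b, Ccnb2 and Spc24 had the largest medians, at 0.81, 0.78 and 0.73. The pairs differed by construct: the member median was 0.61 for shDnmt1, 0.48 for Dnmt1, 0.47 for the control and 0.43 for shp53+shDnmt1. With Tet1CD it was -0.14, with Tet1CD+Dnmt1 0.35 and with Tet1CD+shDnmt1 0.16. Without centring, 18 members were at least 2-fold higher in Vc+ in this sense.

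Between Vc+ SKOM cells and MEFs, 9 of 50 members were higher in all 5 construct pairs and by at least 2-fold in the median, where 6.72% of all genes were, and none was lower (10.8% of all genes). They were Bub1b (median centred log2 ratio 1.90), Spc24 (1.76), Espl1 (1.49), Aurkb and Lmnb1 (both 1.29), Mki67 (1.22), Ect2 (1.11), Kif11 (1.02) and Ncapd2 (1.01). Between Vc- SKOM cells and MEFs there were 2, Bub1b at 1.20 and Spc24 at 1.03, where 6.02% of all genes were, and none was lower (7.46%). Prc1, Spc25, Ccnb2 and Kif20a, a kinesin of cytokinesis, were lower in Vc- SKOM cells in all 5 pairs, with Prc1 at -0.88, as were 31.6% of all genes. Higher in all 5 pairs were 10 members, Mki67, Cenpf, Kif11 and Lmnb1 among them, as were 30.9% of all genes. The member medians over pairs were 0.59 for Vc+ and 0.39 for Vc-. They ran by construct from -0.04 (shp53+shDnmt1) to 1.18 (shDnmt1) in Vc+ and from -0.35 (shp53+shDnmt1) to 0.73 (Tet1CD) in Vc-. Without centring the count was 17 in Vc+ and 0 in Vc-, with 1 member lower in Vc-.

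Reads of 10 members could be shared with a protein-coding gene on the opposite strand, since an exon of each overlaps one. They are Ccna2, Cdc20, Cdc25c, Cdca8, Cenpk, Kif20a, Kif4, Ncapg, Prc1 and Ube2c. With any annotated gene on either strand counted, 14 members had such an overlap. Among them Ncapd2 and Top2a overlap small RNA genes on the same strand. The strand setting of the counting is not given in the sources used here.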

How the data were processed

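Total RNA of 21 libraries was extracted with Trizol and prepared with a TruSeq kit, per the labels' protocols. The authors deposited 1 table for each of 3 settings. The values the authors deposited were treated as scores: whole numbers that had been brought to nearly the same distribution within a table, as the values show, by a normalization that is not given in the sources used here. Bowtie, RSEM and the mm10 build are named without roles or versions, per the submitters' processing notes. Because the tables were normalized separately, tests were made within a table or with a term for the table, and ratios between tables were not tested.

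Genes with a mean of at least 10 were fitted as log2(value + 5) with limma 3.58.1 (intensity trend, R 4.3.3) and Benjamini-Hochberg adjustment over all genes fitted, at a threshold of 0.05. The model over the 14 SKOM libraries had 8 residual degrees of freedom, the interaction model 4, fits to 1 SKOM setting had 2, and the MEF layout had 1. The fitting code was checked on simulated libraries with known changes. Transcript lengths came from GENCODE M21 and promoters from RefSeq (GRCm38.p6), read with Python 3.11.15 and pandas 2.3.3. Members and lists were chosen with earlier results of these data known. Values per library are given for the members with the largest and smallest Tet1CD change of each role class and for Mki67, Top2a, Cdk1, Ccnb1, Plk1 and Cenpa, and elsewhere for the largest changes and any of opposite direction. Alternatives covered pseudocounts of 1 and 32, filters, the intensity trend, centring, joint quantile normalization, other model terms and each library left out.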

Additional observations from a re-analysis of the deposited data

Results flagged for a closer look

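For 16 members the Tet1CD change was more negative in Vc+ than in Vc- by limma's interaction test, with Benjamini-Hochberg adjustment over all genes, as it was for 8.28% of all genes. Of the 16, 4 (Ncapd2, Lmnb1, Smc4 and Espl1) passed in every fit that left out 1 library and 12 did not. The differences between the media (log2, Vc+ minus Vc-) were -0.92 for Ncapd2, -0.84 for Smc4 and -0.57 for Ncapg, which encode condensin subunits, and -0.89 for Lmnb1 of the nuclear lamina. They were -0.91 for Cdc25c, -0.60 for Ccna2 and -0.55 for Cdk1, which act at mitotic entry, and -0.80 for Top2a. Among the spindle genes they were -0.66 for Kif11, -0.58 for Kif23 and -0.55 for Kif22, all kinesins, and -0.59 for Racgap1, the partner of Kif23 in the central spindle. The rest were -0.75 for Espl1 (separase), -0.57 for Cdca8 and -0.54 for Incenp of the passenger complex and -0.46 for the checkpoint kinase Bub1. Macrophage and leukocyte markers also differed between the media, with a summed value of 2449 to 3250 with Tet1CD in Vc+ and of 633 to 735 with Tet1CD in Vc-, and their part was not tested. Values of the media were normalized separately, and the part of this was not tested either.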

How the results depend on the processing

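The labels give no replicate numbers to pair libraries by. Libraries with matching constructs were set side by side as untested ratios, and the fits took account of medium and constructs through their terms. The fall of all 50 members with Tet1CD over both media kept its direction in every alternative run, and 47 to 50 members passed when 1 library was left out. The count was 43 without the 4 libraries with a Dnmt1 construct. It was 40 of 42 without the Vc+ Tet1CD library and the members of 5000 bases or more, chosen after its low values were seen. With a medium by Tet1CD term 38 members passed, but the Tet1CD term of that model is the change in Vc- alone. Leaving out 1 library gave 0 to 46 members in Vc-, 44 to 48 in Vc+ and 4 to 16 for the difference between the media. Without the intensity trend the counts were 6 in Vc-, 11 for the difference between the media and 0 for shp53 in MEFs, and the cause was not tested. The MEF layout could not be run with a library left out, since no residual degrees of freedom remain.

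Across tables, ratios that were not centred gave 18 members higher in Vc+ than in Vc-, 17 higher in Vc+ SKOM cells than in MEFs, and 0 higher and 1 lower in Vc- SKOM cells than in MEFs, since centring removes the shift between tables. Vc- SKOM cells against MEFs gave 1 member higher with a pseudocount of 32 and 1 with joint quantile normalization, and 2 to 4 when 1 pair was left out. For Tet1CD in MEFs 8 members were at least 2-fold lower with a pseudocount of 32. Depth is not known from these tables, so no limit of detection was set.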

Other observations

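Genes outside the 50 also differed in their Tet1CD change between Vc+ and Vc- by limma's interaction test with Benjamini-Hochberg adjustment. The change was more negative in Vc+ for 14 of 36 genes of replication licensing and S phase, for 9 of 14 further condensin and cohesin genes, for 7 of 28 further spindle genes and for 4 of 32 further kinetochore and centromere genes. It was so for 3 of 17 genes of the anaphase-promoting complex, for 4 of 26 cell cycle transcription factors and regulators, and for 8.28% of all genes. In the first 4 of these lists the most negative differences (log2, Vc+ minus Vc-) were -0.76 ± 0.15 for Uhrf1, a cofactor of Dnmt1 at replication forks (adjusted p = 0.0093), -0.89 ± 0.25 for Smc3 of the cohesin ring (adjusted p = 0.043), -1.32 ± 0.18 for Haus4 of the augmin complex (adjusted p = 0.0027) and -0.74 ± 0.21 for Cenph of the inner kinetochore (adjusted p = 0.042). Kif24, a kinesin of the centriole, went the other way at 3.25 ± 0.27 (adjusted p = 0.00025). None of 17 further checkpoint and mitotic kinase genes passed this limma test.

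In MEFs with shp53 the largest rises within the further cell cycle lists were, 1 a list, in Trip13, which disassembles the checkpoint complex (1.83), Ska1, which couples kinetochores to microtubules (1.75), Mybl2 (1.69), Fbxo5, an inhibitor of the anaphase-promoting complex (1.66), Haus4 of the augmin complex (1.47), Mcm10, a replication initiation factor (1.47), and Rad21 of cohesin (1.01), all past the limma threshold. The targeted gene Trp53, which is in the list of regulators, fell, and by more than any of these rose.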
